A study of Mus musculus with 2 samples.

Results

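Chemokine receptors steer leukocytes toward tissues, vessels and lymph nodes. The 9 receptors described here are Ccr1, Ccr2, Ccr3, Ccr7, Ccrl2, Cx3cr1, Cxcr2, Cxcr4 and Ackr3. They were found on the array as the non-control probes whose transcript accession belongs to 1 of these genes, which gave 12 probes for 9 of the 23786 genes with a probe. The receptors were measured in bone marrow-derived dendritic cells (BMDCs), cells of dendritic and macrophage type that grow out of marrow cultured with the cytokine GM-CSF. The study asks how lactate dampens inflammation in dendritic cells, and these samples compare BMDCs deficient in EGR1, an immediate early zinc-finger transcription factor, with wild-type (WT) BMDCs.

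Each group is 1 sample read on 1 array, so no value has a replicate and no p-value was computed. Both samples are labelled male C57BL/6J and were grown from femoral marrow in medium with 10% serum and 10 ng/ml GM-CSF until day 6. One carries the genotype label Egr1-deficient and the other WT. The kind of Egr1 allele, the age of the mice and the number of mice behind each sample are not given in the sources used here. The labels name no lactate or other stimulus for either sample. Because RNA came from whole cultures, fewer cells of a type and less RNA per cell cannot be told apart.

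The measurements bear on the labels as follows. Egr1 itself, measured by 1 probe on chromosome 18, read 1212 on the EGR1-deficient-labelled array against 380 on WT, opposite to the label. Where that probe lies relative to the altered part of the gene is not known, so it does not settle the label, and every direction rests on the label as given. Xist, the RNA of X inactivation in female cells, read 4559 and 3425 although both samples are labelled male. Of the Y-linked genes, neither array had Ddx3y, Kdm5d or Uty well above background, and 1 of the 2 Eif2s3y probes was, at 27.1 and 25.6. The scanner program called 59.8% of 59305 non-control spots well above background on the EGR1-deficient-labelled array and 55.2% on the WT array. The negative controls' mean net signal was out of the program's range on the EGR1-deficient-labelled array (41.3) and within it on WT (38.7). Calls on 1 array alone carry that limit. The 2 arrays lay on 1 slide and were read in 1 scan, per the file headers. Of the conventional dendritic cell markers, 12 of 13 were well above background on both arrays, with Clec9a on neither. So were 14 of 15 macrophage markers (not Cd163), 11 of 11 monocyte, 12 of 12 neutrophil and 8 of 8 eosinophil markers, 8 of 9 of basophils and mast cells (not Fcer1a), 4 of 5 of plasmacytoid dendritic cells, 3 of 3 of megakaryocytes and 5 of 6 of B cells. It was 4 of 9 for T and NK cells, 2 of 5 for erythroid cells, 2 of 7 for stromal cells and 2 of 5 for endothelial cells.

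As background, chemokine receptors are membrane receptors that couple to inhibitory G proteins and turn a gradient of a chemokine into directed movement. Ccr1, Ccr2, Ccr3, Cx3cr1 and Cxcr2 guide monocytes, eosinophils and neutrophils into tissue, Cxcr4 holds cells in the marrow, and Ccr7 leads mature dendritic cells to lymph nodes. Ccrl2 and Ackr3 are atypical receptors, which bind a ligand without the usual G protein signal. In GM-CSF cultures Ccr7 is known as a marker of maturing dendritic cells, and Ccr2 and Cx3cr1 as markers of monocyte-derived cells.

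Values are processed intensities on a linear scale, each with the error that the scanner program assigns to that spot. Every receptor probe was printed once per array. A difference is the EGR1-deficient-labelled array minus WT, in log2 units, after each intensity was divided by the 75th percentile of all non-control spots on its array (191.6 and 183.0). The level of 1 probe says nothing about the level of another, so the receptors are not ranked by level. Technical spread came from probes printed repeatedly, with a median SD of 0.09 log2 units for a difference between single spots, and from genes with 2 probes, where the SD of the pair of differences was 0.17 at the median and 0.31 as a root mean square.

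Of the 9 receptors, 7 were well above background on both arrays, Ccr3 was so on the EGR1-deficient-labelled array alone, and Ackr3 on neither. Among all 23786 genes, 57.7% were well above background on both arrays. None of the 7 receptors was 2-fold or more apart, against 1.71% of the 13724 genes well above background on both (0.707% higher and 1.01% lower on the EGR1-deficient-labelled array). At 1.5-fold or more, 1 of 7 receptors was lower, Ccr1, against 4.18% of all genes, and 0 of 7 were higher, against 3.51%. The 7 differences ran from −0.97 to 0.32 with a median of −0.03, beside a median of −0.05 over all genes; 3 were above 0 and 4 below. With Ccr3 at its bound the median over 8 receptors was −0.01. Over all genes the 2-fold counts were 97 higher and 138 lower. The split was 77 and 174 after quantile normalization, 73 and 184 after loess, and 103 and 68 in the series table of the authors, in which the median of all genes was shifted by 0.12 to 0.06. The series table counts are over 12772 genes, fewer than the 13724 of the others. At 1.5-fold, 482 genes were higher and 573 lower, against 381 and 674, 342 and 744, and 649 and 239 in the same 3 alternatives.

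**Figure D1:**
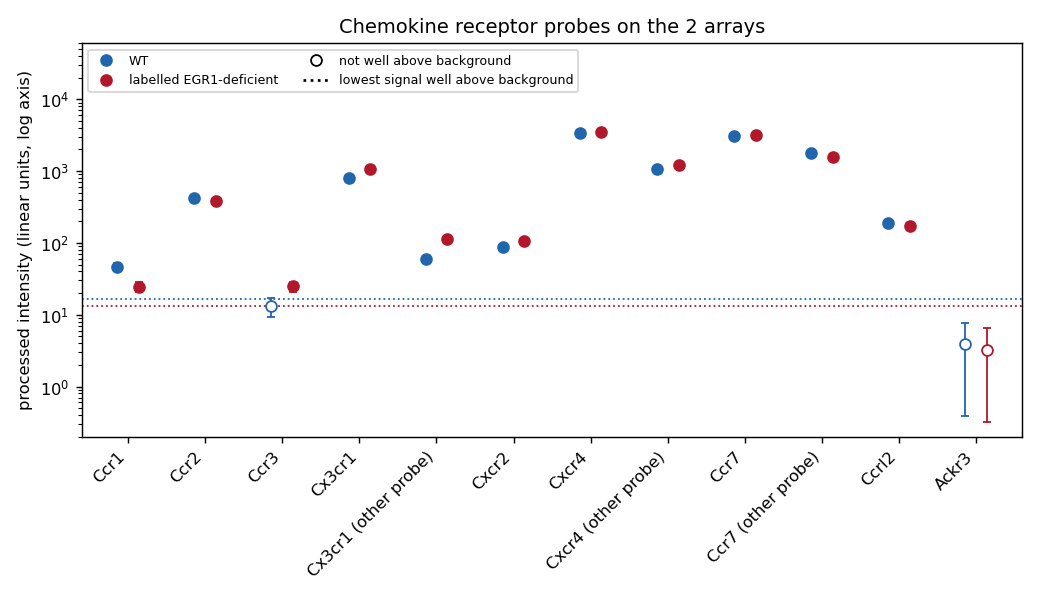
Processed intensity (log axis) of each of the 12 receptor probes on the WT array and on the EGR1-deficient-labelled array. Bars are the scanner program's error for the spot and are hidden where smaller than the point (the lower bars of Ackr3 are clipped), open points are not well above background, and dotted lines mark the lowest signal well above background on each array (16.3 on WT and 13.3 on the other). The pairs of points lie close together except for Ccr1, Ccr3 and the dimmer Cx3cr1 probe.

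To show what lies at these genes, the bases before the RefSeq transcription start are given for the receptors with the largest difference in each direction among those read on both arrays (Ccr1 and Cx3cr1) and for both receptors whose promoter held a searched motif (Cxcr4 and Ccr3). The sequences come from a RefSeq promoter table of build GRCm38.p6, which held 10 promoters for 8 of the 9 receptors, all but Ccr7. Each run is the 250 bases that end just before the start, 5′ to 3′ on the strand of the gene. The positions are chr9:123968693-123968942 (minus strand), chr9:120068297-120068546 (minus strand), chr1:128592300-128592549 (minus strand) and chr9:124021721-124021970 (plus strand), all in that build. Capitals mark a match to the EGR motif in Cxcr4 and to the NF-kB motif in Ccr3.
Ccr1: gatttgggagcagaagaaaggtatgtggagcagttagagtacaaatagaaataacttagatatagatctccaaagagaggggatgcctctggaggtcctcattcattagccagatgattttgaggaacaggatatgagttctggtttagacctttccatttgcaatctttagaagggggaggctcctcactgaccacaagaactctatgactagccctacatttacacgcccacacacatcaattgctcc
Cx3cr1: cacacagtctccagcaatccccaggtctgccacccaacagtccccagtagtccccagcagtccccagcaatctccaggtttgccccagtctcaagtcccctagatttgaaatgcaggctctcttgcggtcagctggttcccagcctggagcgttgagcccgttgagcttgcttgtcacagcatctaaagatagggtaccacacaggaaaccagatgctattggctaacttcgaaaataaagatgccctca
Cxcr4: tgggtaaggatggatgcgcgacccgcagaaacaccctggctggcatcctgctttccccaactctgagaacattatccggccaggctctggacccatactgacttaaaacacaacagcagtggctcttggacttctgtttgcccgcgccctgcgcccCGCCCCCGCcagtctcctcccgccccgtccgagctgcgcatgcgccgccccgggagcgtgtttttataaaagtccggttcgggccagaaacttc
Ccr3: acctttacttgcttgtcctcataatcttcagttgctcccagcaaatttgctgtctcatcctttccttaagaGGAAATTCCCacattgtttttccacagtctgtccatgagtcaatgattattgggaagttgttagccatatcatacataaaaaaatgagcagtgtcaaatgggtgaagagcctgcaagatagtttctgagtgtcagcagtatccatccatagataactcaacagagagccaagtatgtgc

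The motifs were searched on both strands of the window from 250 bases before to 50 bases after the start. The EGR motif GCGNGGGCG, where N is any base, was found in the Cxcr4 promoter alone of the 10, on the strand opposite to the gene as GCGGGGGCG, which reads CGCCCCCGC in the run printed above and begins there 94 bases before the start. It was found in 5.55% of all 32851 promoters of the same length. The NF-kB motif, GGG and TTTCC with any 2 bases between them, was found in the Ccr3 promoter alone, on the opposite strand as GGGAATTTCC, which reads GGAAATTCCC in the run printed above and begins there 179 bases before the start, and in 1.63% of all promoters. The PU.1 motif GAGGAAGT was found in none of the 10 and in 3.2% of all. No match in these windows overlapped another. The Cxcr4 window held 20 CpG dinucleotides, against a median of 7 over all promoters. There were 1 each for Ccr1, Ccr2 and Ccr3, 2 for Cxcr2, 5 for Cx3cr1, 8 for Ackr3 and 6, 8 and 8 for Ccrl2. These matches are descriptions of the letters and not of a bound site.

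Ccr1 had the lowest of the 7 differences. It encodes a receptor of monocytes and granulocytes for CCL3, CCL5 and related chemokines. Its probe read 24.7 ± 3.69 on the EGR1-deficient-labelled array against 46.3 ± 5.68 on WT, a difference of −0.97 or 1.96-fold. The errors of the 2 readings do not overlap, and the difference is larger than the spread between 2 probes of a gene, but the gene has 1 probe. Both readings are dim. Among the 2406 genes whose mean signal lies between 20 and 50, a range chosen after the value was seen, 9.68% were 1.5-fold or more lower and 2.58% were 2-fold or more lower. The difference was −0.32 after normexp background correction with an offset of 50, which draws dim readings together.

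Macrophage markers stood beside Ccr1. In their brightest probes all 14 measured markers of that list read below 0, with a median of −0.37, though a second probe of Siglec1, a lectin of macrophages, read 80.1 and 54.8 (0.48, against −0.55 in the brighter one). Over the brightest probes their summed level was 448 on the EGR1-deficient-labelled array and 581 on WT. The sum is over markers well above background on both arrays, with each intensity divided by the array's 75th percentile. Sums of this kind, here and below, follow the brightest probes, Apoe most of all in this list. The 3 brightest were Apoe, which carries lipids (−0.37), the lysosomal protein gene Cd68 (−0.34) and Csf1r, the M-CSF receptor gene (−0.39, another probe −0.05). Medians of the monocyte and granulocyte lists were −0.16 for monocytes, −0.03 for neutrophils, −0.81 for eosinophils and −0.36 for basophils and mast cells. The part of any of these cells, macrophages included, in the Ccr1 reading was not tested.

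Ccr2 was close on the 2 arrays. It encodes the receptor for CCL2 with which monocytes leave the marrow. Its probe read 383 ± 38.4 and 416 ± 41.8, a difference of −0.19, and the errors overlap. The difference ran from −0.20 to −0.07 over the alternatives. The filters, probe averaging, keeping of outlier spots and percentile-scaled series table could not change the value of this 1 probe. Monocyte markers had a median of −0.16 over 11 genes, of which 7 were below 0 and 4 above, with summed levels of 325 and 382. The brightest were the Ly6C genes Ly6c1 (−0.21, another probe 0.18) and Ly6c2 (−0.16), which are near-identical paralogs, and the fibronectin gene Fn1 (−0.54, another probe −0.32).

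Ccr3, the eotaxin receptor of eosinophils, was called well above background on the EGR1-deficient-labelled array alone. It read 24.7 ± 3.92 there and 13.2 ± 3.87 on the WT array, whose lowest well-above-background signal was 16.3. Against that lowest signal its reading was at least 1.45-fold higher on the EGR1-deficient-labelled array, before the errors of the readings are counted. Of all 23786 genes, 5.45% were well above background on that array alone and 1.62% on the WT array alone. The measured difference was 0.83, and it was 0.68 after quantile normalization, 0.69 after loess and 0.20 after normexp.

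Eosinophil markers went the other way from Ccr3. All 8 read lower on the EGR1-deficient-labelled array, with a median of −0.81 and summed levels of 13.3 against 24.4. Prg2, the major basic protein gene, differed by −0.69, and the ribonuclease genes Ear1 and Ear2, which are close paralogs, by −1.56 and −1.47. Il5ra, the receptor gene for the eosinophil growth factor IL-5, read 128 and 134 (−0.12). The relation of Ccr3 to eosinophil content was not tested.

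Cx3cr1 had the highest difference of the 7. It encodes the fractalkine receptor of monocytes, macrophages and their dendritic relatives. The brighter of its 2 probes read 1056 ± 106 on the EGR1-deficient-labelled array and 808 ± 80.9 on WT, a difference of 0.32. The other probe read 112 ± 11.6 and 59.1 ± 6.92, a difference of 0.86 or 1.81-fold. In both probes the EGR1-deficient-labelled array was higher and the errors of the 2 arrays do not overlap. The mean of the 2 probes was 0.59, past 1.5-fold, while the brighter probe alone is not. With the brighter probe the difference ran from 0.27 to 0.44 over the other alternatives.

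Marker lists of cells that can carry Cx3cr1 ran both ways. Macrophage markers had a median of −0.37 and monocyte markers one of −0.16. Of 9 T and NK cell markers, 4 were well above background on both arrays and all 4 were above 0 in their brightest probes, with a median of 0.50 and summed levels of 7.06 and 4.41. The 3 brightest were Cd4 (0.63, another probe 0.25), the NK receptor gene Klrd1 (1.62) and the T cell receptor subunit gene Cd3e (0.18, another probe −0.08). Of the others, Cd3g and Gzma were called on the EGR1-deficient-labelled array alone, Cd3d on the WT array alone, and Cd8a and Ncr1 on neither. The part of these cells in the Cx3cr1 reading was not tested.

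Cxcr2 and Cxcr4 bind chemokines of the CXC class. Cxcr2, the receptor that draws neutrophils toward CXCL1 and CXCL2, read 105 ± 10.9 on the EGR1-deficient-labelled array and 88.4 ± 9.42 on WT, a difference of 0.19 with overlapping errors. It stayed above 0 in every alternative, from 0.06 to 0.30. Neutrophil markers had a median of −0.03, with 6 above 0 and 6 below, while their summed levels, 756 and 721, went the other way from the median. The brightest were the G-CSF receptor gene Csf3r (0.11), the calprotectin subunit gene S100a9 (0.17) and the lipocalin gene Lcn2 (−0.09).

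Cxcr4, the receptor for CXCL12 that retains cells in marrow, differed little between the arrays. The brighter of its 2 probes read 3541 ± 354 and 3367 ± 337, a difference of 0.01. The other, named from the accession of another transcript of the gene, read 1198 ± 119.8 and 1079 ± 108, a difference of 0.08. Both differences are within the spread between repeated spots. The brighter probe ran from −0.0048 after normexp to 0.15 after quantile normalization, so no direction is given.

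Ccr7, which brings mature dendritic cells to lymph nodes along CCL19 and CCL21, was also close on the 2 arrays. Its brighter probe read 3177 ± 318 on the EGR1-deficient-labelled array and 3091 ± 309 on WT, a difference of −0.03. Its other probe read 1556 ± 156 and 1760.0 ± 176, a difference of −0.24. The errors overlap for both probes. The direction turned with the processing, at 0.09 after loess, 0.11 after quantile normalization and 0.09 after normexp. Relative to the median of all genes the brighter probe stood at 0.03 as reported. Mature dendritic cell markers had a median of 0.10, with 7 of 13 above 0, while their summed levels, 68.4 and 71.9, went the other way from the median. The brightest were the calcium channel subunit gene Cacnb3 (−0.25), the checkpoint ligand gene Cd274 (−0.16) and Fscn1, whose product bundles actin in dendrites (0.26).

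The atypical receptors gave 1 reading close on the 2 arrays and 1 below background. Ccrl2 binds chemerin and presents it to neighbouring cells. It read 171 ± 17.4 on the EGR1-deficient-labelled array and 189 ± 19.2 on WT, a difference of −0.21 with overlapping errors. The difference ran from −0.22 to −0.09 over the alternatives, some of which, as for Ccr2, could not change the value of 1 probe. Ackr3, which scavenges CXCL12 and is known from endothelial and stromal cells, read 3.25 ± 3.25 and 3.87 ± 3.88 and was below the well-above-background call on both, so it has no fold. Of 5 endothelial markers, Pecam1 (0.42) and Kdr (0.41, another probe missing that call) were well above background on both arrays, and Cdh5, Tek and Emcn on neither. Stromal markers, of which 2 of 7 were so on both arrays and 3 on the EGR1-deficient-labelled array alone, are given with Cxcl12, the ligand of Ackr3.

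**Figure D2:**
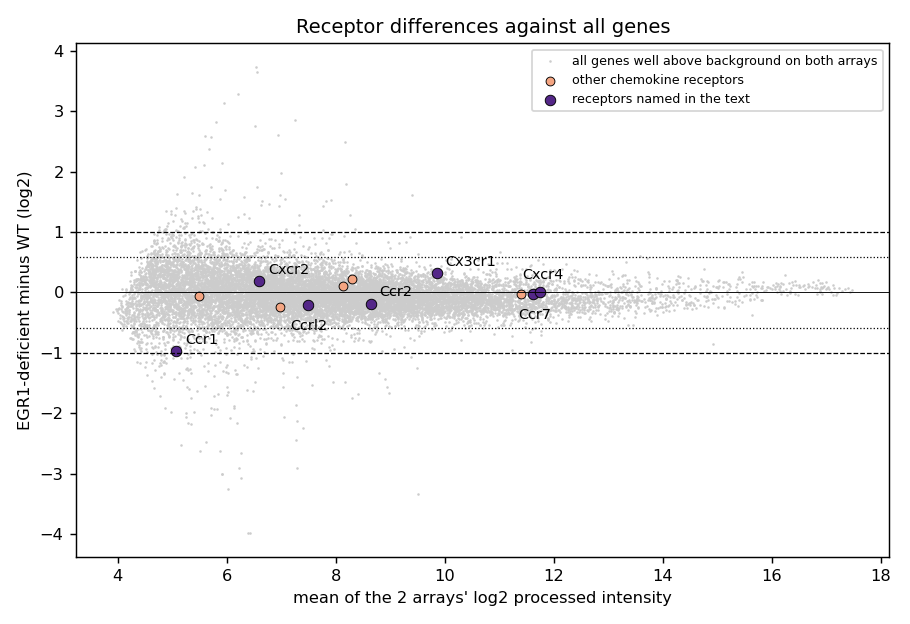
Difference between the arrays (log2, vertical axis) against the mean log2 processed intensity (horizontal axis) for the 13724 genes well above background on both arrays, with the 7 receptors named and 5 other chemokine receptors marked; each point is 1 gene. Dashed lines mark 2-fold and dotted lines 1.5-fold: Ccr1, at −0.97, is the receptor beyond 1.5-fold and lies where the spread of all genes is wide.

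Of 15 other chemokine receptors, all with a probe, 5 were well above background on both arrays, and none of those 5 differed as much as Ccr1. They had a median of −0.02 and a range from −0.23 to 0.22. Cmklr1, the signalling receptor for chemerin, read 2725 and 2644 (−0.02). Cxcr6, the receptor for CXCL16, differed by 0.22 (another probe 0.07), Ackr1, an atypical receptor of red cells and vessels, by 0.10 (another probe not well above background), Ccr6, a receptor for CCL20, by −0.06, and the gut-homing receptor gene Ccr9 by −0.23. The skin-homing receptor gene Ccr10 was called on the EGR1-deficient-labelled array alone, at 26.6 against 12.3. With the errors not counted, it was at least 1.56-fold higher there. Ccr8 was called likewise, at 16.3 against 14.7, with no bound above 1. Ccr1l1, Ccr4, Cxcr1, Cxcr3, Cxcr5, Xcr1, Ackr2 and Ackr4 were well above background on neither array. Xcr1 marks the cross-presenting class of dendritic cells, as does Clec9a.

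By position, 14 of these 24 receptors lie on chromosome 9, among them Ccr1, Ccr2, Ccr3, Ccrl2 and Cx3cr1. Cxcr2, Cxcr4 and Ackr3 lie on chromosome 1 and Ccr7 on chromosome 11. In the RefSeq gene order, 7 of them form a cluster that runs Ccr9, Cxcr6, Xcr1, Ccr1, Ccr1l1, Ccr3, Ccr2. Along it the differences were −0.23 for Ccr9, 0.22 for Cxcr6, −0.97 for Ccr1 and −0.19 for Ccr2, with Ccr3 called on 1 array and Xcr1 and Ccr1l1 on neither. Of the receptors of the cluster measured on both arrays, Ccr1 had readings whose errors do not overlap, and those of Ccr9, Cxcr6 and Ccr2 overlap. Fyco1, a vesicle transport gene inside the cluster, differed by −0.53 in 1 probe, where the errors do not overlap. In its other probe, where they do, it differed by 0.28. Ccr1 and Ccr1l1, and Cxcr1 and Cxcr2, are close paralogs, and how far their probes bind each other's RNA was not tested.

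Most of the ligands of the 9 receptors read lower on the EGR1-deficient-labelled array. Of 23 ligands, 22 had a probe and 17 were well above background on both arrays. Of these 17, 14 were below 0 and 3 above, where 57.4% of all genes were below 0, with a median of −0.40 (−0.43 over 19 with those called on 1 array at their bound). At 1.5-fold or more, 6 were lower, against 4.18% of all genes, and 1 was higher, against 3.51%. At 2-fold 1 was lower, against 1.01%. This direction was already known from these arrays when the list was made, so it is a description.

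The ligands of Ccr1 and Ccr2 were among them. CCL3, CCL4 and CCL5 are chemokines of inflamed tissue, and their genes differed by −0.43, −0.16 (another probe −0.15) and −0.40. Ccl5 read 10213 and 12850.0 on the 2 arrays. The myeloid chemokine genes Ccl6 and Ccl9, ligands of Ccr1, differed by −0.34 and −0.28. Ccl2, the main ligand of Ccr2, read 288 and 272 (0.02), whereas Ccl12, a rodent ligand of Ccr2, read 52.4 and 93.3 (−0.90). Ccl7, which binds several of these receptors, was called on the WT array alone, at 11.4 against 21.3. With the errors not counted, it was at least 1.68-fold lower on the EGR1-deficient-labelled array. Ccl8 was well above background on neither array.

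The eotaxins Ccl11 and Ccl24, ligands of Ccr3, read 15.8 against 29.4 (−0.96) and 39.9 against 94.0 (−1.30). These are the opposite direction to their receptor, while Ccl26 was well above background on neither array. Ccl11 on the EGR1-deficient-labelled array read near the lowest well-above-background signal there, 13.3. Cx3cl1, the single ligand of Cx3cr1, read 955 and 897 (0.02). For Cxcr2, the neutrophil attractant genes Cxcl1, Cxcl2 and Cxcl3 differed by −0.87, −0.67 and −0.78, Cxcl5 by −0.22 and the platelet chemokine gene Ppbp by −0.14.

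For Ccr7, the ligand gene Ccl19 was called on the WT array alone, at 5.93 against 79.5. With the errors not counted, it was at least 6.25-fold lower on the EGR1-deficient-labelled array. That is 1 probe read once per array. Ccl21a, its other ligand and 1 of several near-identical copies, was not well above background on either. Cxcl12, the ligand of Cxcr4 and Ackr3 and a product of stromal cells, read 42.6 against 20.7 (0.98), the highest ligand difference, and its other probe was not well above background. Both readings are dim, and the WT one is near the lowest well-above-background signal there, 16.3. Of 7 stromal markers, 2 were measured on both arrays and both were above 0, the collagen gene Col1a2 at 1.05 and Pdgfrb at 0.99. A further 3, the matrix gene Dcn among them, were called on the EGR1-deficient-labelled array alone, and 2 (Lum and Pdgfra) on neither. The summed levels of the 2 measured on both arrays were 0.699 and 0.343. The part of stromal content in the Cxcl12 reading was not tested. Rarres2, the gene of chemerin, which Ccrl2 binds, read 21.5 and 29.7 (−0.53).

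**Figure D3:**
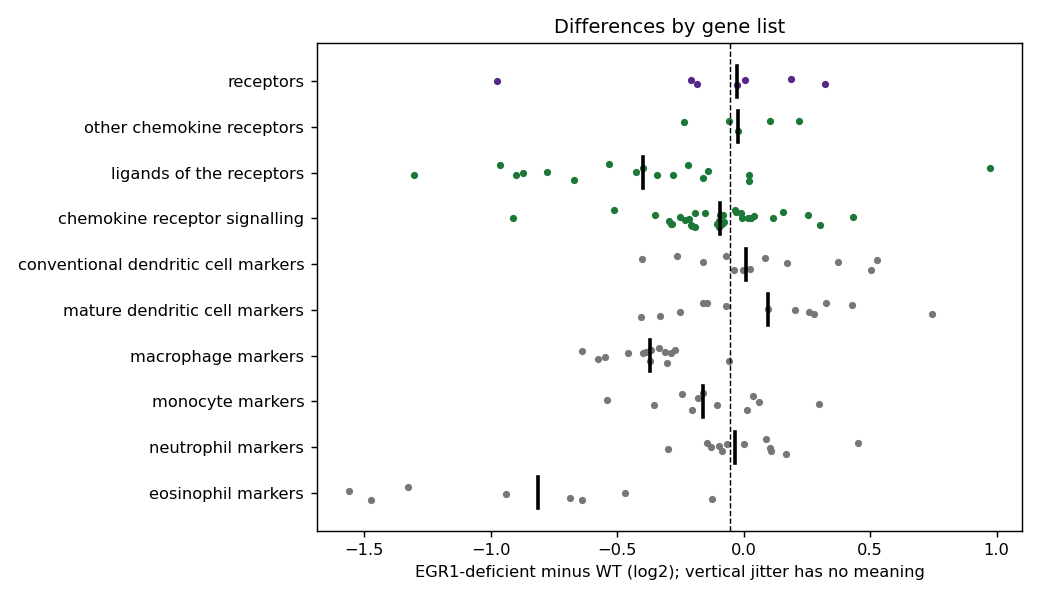
Difference between the arrays (log2, horizontal axis) of each gene well above background on both arrays, by gene list; thick bars are list medians and the dashed line is the median of all genes (−0.05). The receptors (median −0.03) centre near that line, the ligands (−0.40), macrophage markers (−0.37) and eosinophil markers (−0.81) to the left of it.

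The signalling machinery behind the receptors was measured in full, all 34 genes being well above background on both arrays. Their median was −0.09, with 26 below 0 and 8 above, beside −0.05 over all genes, of which 57.4% were below 0. At 1.5-fold 1 of the 34 was lower, against 4.18% of all genes, and 0 were higher, against 3.51%. The brightest were the polarity GTPase gene Cdc42 (−0.01), the beta-arrestin gene Arrb1 (−0.09), the G protein inhibitor gene Rgs10 (−0.28, another probe −0.51) and the adhesion GTPase gene Rap1b (−0.21). The largest differences were those of Rgs18, which ends G protein signals (55.6 against 99.95, −0.91), the inhibitory G protein gene Gnai3 (−0.51) and the phospholipase genes Plcb2 (0.43, with others of its probes at 0.57, 0.51 and −0.13) and Plcb3 (−0.35, another probe −0.37).

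**Figure D4:**
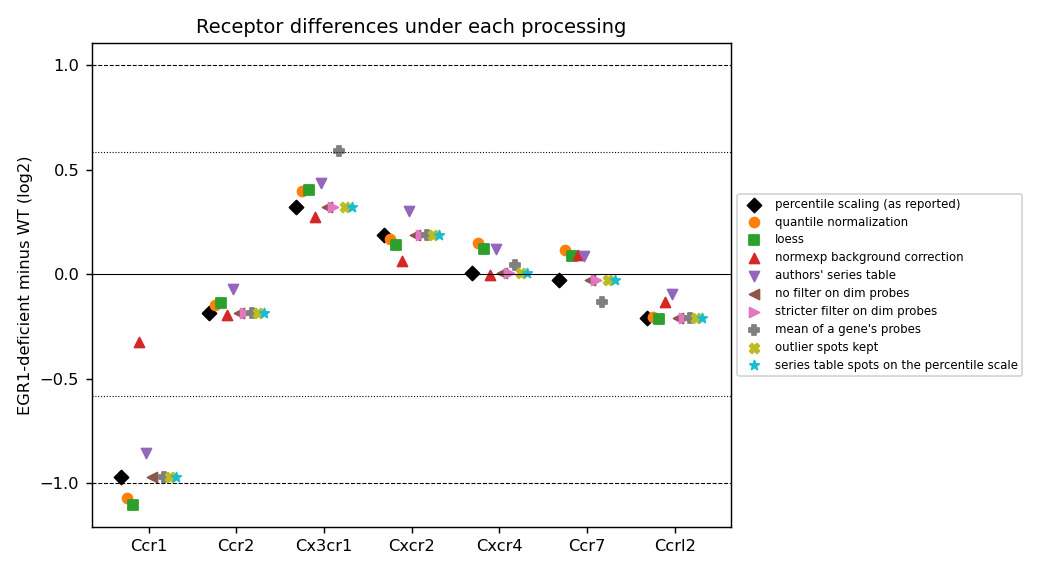
Difference between the arrays (log2, vertical axis) of the 7 receptors well above background on both, under the reported processing and each of 9 alternatives; dashed lines mark 2-fold and dotted lines 1.5-fold. Ccr1 ran from −1.10 to −0.32 and has no value under the stricter filter, Cx3cr1 stayed above 0, Ccr2 and Ccrl2 stayed below 0, and Ccr7 and Cxcr4 crossed 0. Filters, probe averaging, outlier spots and the percentile-scaled series table leave the value of a receptor with 1 probe unchanged where it passes.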

How the data were processed

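Total RNA was labelled with Cy3 and hybridised to one-colour Agilent arrays, 1 per group, per the labels. The authors deposited scanner output with spot intensities; per the file headers it came from Agilent Feature Extraction 12.1.0.3, while the submitters' processing notes name 11.5.1.1. The processed intensity is already background-subtracted and detrended, per the file headers. The series table of intensities that the authors deposited equals it times 6.18 (EGR1-deficient) and 5.97 (WT).

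Intensities were divided by the 75th percentile of all non-control spots on the array and taken to log2. Outlier spots were left out, repeated spots averaged and probes named through their accession in a RefSeq gene table of GRCm38.p6 (34565 of 56605 probes named as 1 gene). The array files name build mm9, so that table gave names, chromosomes and gene order. A gene was represented by its brightest probe. A gene called on 1 array has an at-least fold against the higher of the dim array's lowest well-above-background signal and its own reading. The spot errors do not enter it, so with the errors counted the fold can be smaller. Array number limits the precision; no test was possible with 1 array per group. The counting step was run on simulated data with known differences, a check of the code and not of how reliable the counts are.

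Named by rule were all 9 receptors, Egr1, the other chemokine receptors, ligands above background on an array, the 4 brightest and the 4 most different signalling genes, and the brightest markers of lists set beside a receptor. Il5ra, Fyco1, Ccl8, Ccl21a, Ccl26 and the sex-linked genes were added after their values were seen. So were second probes of Siglec1, Prg3, Siglecf and Ear6, markers called on 1 array and markers named as not well above background. The receptors and lists were chosen with earlier results of these data known. Python 3.11.15, R 4.3.3 and limma 3.58.1 were used. For normexp the median spot signal replaced the mean. Proteins were not analysed here, and 1 further receptor of the wider list is not reported here.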

Additional observations from a re-analysis of the deposited data

How the results depend on the processing

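With 1 array per group, no array could be left out and no p-value exists, and no paired analysis was possible because the labels give no replicate numbers. A value was taken to move when it changed by 0.17 log2 units, the median SD between 2 probes, or a count by over 1.5 times. By that measure 156 of the receptor, list and count values stayed and 23 moved, and for marker lists 115 stayed and 11 moved. These tallies include values that could not move. The filters, kept outlier spots and percentile-scaled series table left each receptor they kept unchanged. Probe averaging did so for receptors with 1 probe. The tallies are therefore no measure of stability. Ccr1 moved to −0.32 with normexp, which left 0 receptors 1.5-fold lower, and over all genes 18 higher and 32 lower at 2-fold and 68 and 130 at 1.5-fold. Quantile normalization and loess each put 1 receptor, Ccr1, 2-fold lower. The stricter filter on dim probes removed Ccr1, so 0 receptors were 1.5-fold lower. Of the 12146 genes it kept, 36 were higher and 77 lower at 2-fold, and 262 were higher at 1.5-fold. Without a filter 1 receptor, Ccr3, was 1.5-fold higher. Over all 23786 genes, 1280 were then higher and 971 lower at 2-fold, and 2527 and 1932 at 1.5-fold. Averaged over its probes, Cx3cr1 was 0.59, so 1 receptor was 1.5-fold higher. Among marker lists, normexp moved the stromal median from 1.02 to 0.39 and the eosinophil median from −0.81 to −0.63. Without a filter the stromal median was 0.68, and the endothelial median went from 0.42 to −0.28. The remaining moves were in B cell and megakaryocyte medians. In the series table of the authors, over 12772 genes, 68 were 2-fold lower and 239 were 1.5-fold lower, and the ligand median was −0.20. Its spots scaled on the percentile instead, a setting chosen after seeing the data, gave 67 genes higher and 88 lower at 2-fold. For the filters, the probe mean and the series table, the construction shows the cause of a move. The series table is the processed intensity times 1 factor per array, over fewer spots. For the other settings the cause was not tested. Signal over background limits Ccr1, Ccr3 and Ackr3 among the receptors, and dim ligands such as Cxcl12 and Ccl11.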
